A study of Homo sapiens with 3 samples.

Results

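The 10 genes described here encode the copper transporters SLC31A1, SLC31A2, ATP7A and ATP7B and the copper chaperones and assembly factors ATOX1, CCS, COX17, SCO1, SCO2 and COMMD1. They were chosen by name as genes that handle copper and, in part, platinum drugs, and every probe set annotated to them was taken, out of 54675 probe sets on the array and 19775 genes represented. That gave 14 probe sets annotated to 1 of the 10 genes alone and 1 more annotated to both POPDC2 and COX17. RNA came from MHCC97Low, a human metastatic hepatocellular carcinoma line, in 3 forms, which were a cisplatin-resistant subline (MHCC97L/CisR, here CisR), a doxorubicin-resistant subline (MHCC97L/DoxR, here DoxR) and the parental line from which both were derived. All were grown in DMEM with 10% serum and listed as having received no treatment. Each line was measured on 1 Affymetrix U133 Plus 2.0 array, so there is no replicate error to set a difference against, nothing could be tested, and precision is limited by having 1 array a line. Each resistant subline is a single derived line, and the drug doses and times used to select it were not used here.

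Copper enters cells mainly through SLC31A1 (CTR1), a trimeric plasma membrane channel that has also been linked to the uptake of cisplatin. Inside the cell, chaperones hand copper from protein to protein. ATOX1 serves the copper-pumping ATPases ATP7A and ATP7B of the secretory pathway, CCS serves superoxide dismutase, and COX17 passes copper to SCO1 and SCO2 for the assembly of cytochrome c oxidase in mitochondria. In liver, ATP7B loads ceruloplasmin and exports copper to bile, and its loss causes Wilson disease, whereas loss of ATP7A causes Menkes disease. Both ATPases, ATOX1 and SLC31A1 have been studied as routes by which platinum drugs are taken up, bound, sequestered or exported.

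The 250 bases upstream of an annotated start are shown for COX17, the gene with the largest difference of the 10 in the CisR array, and for SLC31A1, the main copper importer. COX17 has 2 annotated starts and the outermost was taken, while SLC31A1 has 1. They are RefSeq sequences of build GRCh38.p14, at chr3:119677407-119677656 on the minus strand for COX17 and at chr9:113221294-113221543 on the plus strand for SLC31A1, written 5′ to 3′. Capitals mark matches on either strand to the metal response element core (TGCACNC or TGCGCNC), the NRF1 palindrome (GCGC, any 2 bases, GCGC) and the GC box (GGGCGG).
COX17: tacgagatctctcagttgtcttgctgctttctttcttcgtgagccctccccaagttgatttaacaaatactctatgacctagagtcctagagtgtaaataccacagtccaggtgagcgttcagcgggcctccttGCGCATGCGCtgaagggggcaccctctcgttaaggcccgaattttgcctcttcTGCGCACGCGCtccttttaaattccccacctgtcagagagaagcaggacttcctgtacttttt
SLC31A1: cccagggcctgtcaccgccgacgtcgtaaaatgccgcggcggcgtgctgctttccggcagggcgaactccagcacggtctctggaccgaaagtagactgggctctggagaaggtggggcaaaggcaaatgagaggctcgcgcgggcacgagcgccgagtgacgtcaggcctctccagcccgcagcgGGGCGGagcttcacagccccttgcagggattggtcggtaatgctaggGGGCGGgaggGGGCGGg
The printed COX17 window held 2 matches to the NRF1 palindrome, 1 of which overlaps the single match to the metal response element core, and no GC box. The window of the inner COX17 start, at chr3:119677004-119677253, held 1 core, no palindrome and 4 GC boxes. The SLC31A1 window held 3 GC boxes and neither of the other motifs. Among 35116 windows of the same length upstream of annotated starts, 24.8% held the metal response element core, 7.16% the NRF1 palindrome and 42.6% the GC box. The table held 13 windows for 8 of the 10 genes, of which 7 held the core, 3 the palindrome and 7 the GC box. These windows are not separate, since ATP7B, COX17 and COMMD1 have several each. The ATP7B windows at chr13:52012133-52012382 and chr13:52012009-52012258 overlap and share GC boxes. SLC31A2 and SCO2 were the other genes. A match is a description of these letters and not evidence of binding.

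The arrays were alike in overall signal, with medians of 79.2 in the CisR, 73.3 in the DoxR and 78.5 in the parental array. Values under 76.9, the median of all values and called the floor here, were set to it ahead of the log2 step, because low MAS5 signals have no usable order. A gene was compared where at least 1 of its values lay above the floor, and a difference was counted at 2-fold. Of 13 hepatocyte markers on the array, 10 were above the floor in the CisR, 8 in the DoxR and 10 in the parental array. Their summed signal was 2930, 8057 and 16189, in that order. Albumin (ALB) had a signal of 3.17 in the CisR and 3115 in the DoxR array, against 1545 in the parental array. Apolipoprotein B (APOB) went the other way in CisR, with 386 and 816 in the sublines and 42.3 in the parental array, and APOA2 was under the floor on all arrays. Of 12 markers compared in the CisR array, 9 were past 2-fold lower and 1 higher, against 5.41% of all genes past it. Of 11 in the DoxR array, 4 were lower and 2 higher, against 5.72%. The 4 were transferrin (TF) and the fibrinogen chains FGA, FGB and FGG, which were past 2-fold lower in CisR too. Other compared probe sets were past 2-fold lower for TF and FGB in both sublines, and for ALB and SERPINA1 in CisR. The other FGA probe set was at a log2 difference of -0.43 in both sublines. That of APOH, also counted lower, was at -0.32 in CisR. Those of ALB were at 0.18 and 0.95 in DoxR, against 1.01 by the brightest. Of 5 epithelial markers, the keratins KRT8, KRT18 and KRT19 were bright on all arrays and EPCAM was under the floor on each. Cadherin CDH1 had a signal of 1708 in the CisR and 3062 in the DoxR array, against 798 in the parental array. The summed signal of 6 fibroblast markers was 3305 in the CisR, 1528 in the DoxR and 742 in the parental array, with COL1A2, COL3A1 and PDGFRB under the floor on each. Most of that sum in the sublines was lumican (LUM), at 2632 in the CisR, 1167 in the DoxR and 258 in the parental array, whereas COL1A1 was at 511, 242 and 309. The part of these markers in the values below was not tested.

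Most of the copper genes lay close to their parental signal in both sublines. In the CisR array 1 of the 10 genes, COX17, was past 2-fold, against 5.41% of 12710 genes compared. In the DoxR array none of the 10 was, against 5.72% of 12605 genes. The median log2 difference of the 10 genes was 0.08 in the CisR array, beside 0.02 over all genes, and 0.01 in the DoxR array, beside 0.00 over all genes. The median size of the difference, whatever its sign, was 0.16 and 0.22 for the 10 genes in the CisR and DoxR arrays, beside 0.25 over all genes in both. By probe set, 1 of 13 compared was past 2-fold in the CisR array, against 4.93% of all, and 1 of 13 in the DoxR array, against 5.10%. At 1.5-fold, SLC31A2 and COX17 were past the threshold in the CisR array and SLC31A2 in the DoxR array, against 17.5% and 17.7% of all genes. At 2-fold, counts of 0 and 1 among 10 genes are near these backgrounds.

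**Figure D1:**
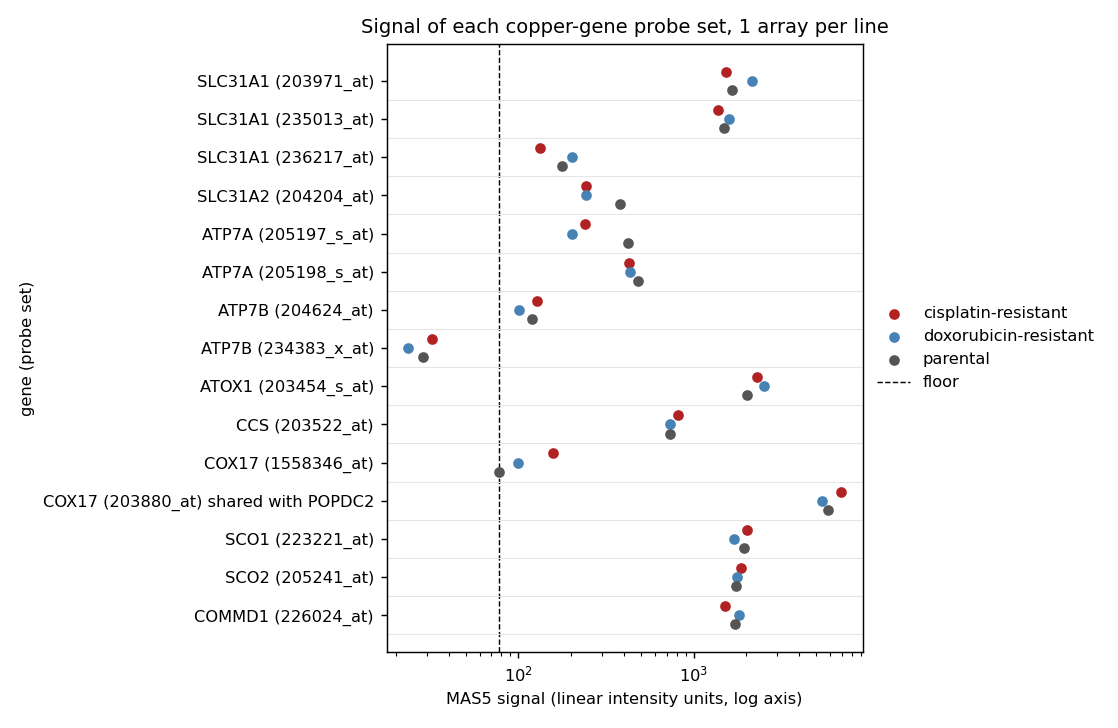
Deposited MAS5 signal (log axis) of every probe set annotated to a copper gene, with 1 point for each array and the floor dashed. The SLC31A2 probe set and both ATP7A probe sets have the parental point to the right of both sublines. The probe set of COX17 alone (1558346_at) sits near the floor, while the one shared with POPDC2 (203880_at) is bright.

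Of the importers, SLC31A2 had a lower signal than parental in both sublines, while SLC31A1 was lower in CisR and higher in DoxR, all within 2-fold. In RNA pooled from a whole culture, fewer cells with a transcript and less of it per cell cannot be told apart. SLC31A1 is measured by 3 probe sets. The brightest (203971_at) had a signal of 1526 in the CisR, 2163 in the DoxR and 1659 in the parental array. The next (235013_at) had 1376, 1583 and 1495 in the same order, and the dimmest (236217_at) had 133, 202 and 178. All 3 probe sets had the lowest value in the CisR array and the highest in the DoxR array. Their log2 differences from parental were -0.12, -0.12 and -0.42 in the CisR array and 0.38, 0.08 and 0.18 in the DoxR array. For the brightest, 34.6% of all genes lay lower in the CisR array and 16.6% lay higher in the DoxR array.

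SLC31A2 (CTR2), a relative of SLC31A1 found mostly on internal membranes, had a signal of 242 in the CisR and 241 in the DoxR array, against 381 in the parental array. Its 1 probe set (204204_at) was thus 1.57-fold and 1.58-fold lower, at log2 differences of -0.65 and -0.66, and the sublines differed from each other by -0.01. Of all genes, 6.70% lay further down in the CisR and 6.83% in the DoxR array. Both differences use the same parental array, so they are not separate measurements of a decrease. Within the dimmest of 3 equal groups of genes by mean signal, where SLC31A2 falls, 21.4% and 21.8% of genes had a difference of larger size.

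The copper ATPases gave unlike pictures by probe set. ATP7A, which pumps copper into the secretory pathway and out of most cell types other than hepatocytes, had signals of 240.0 in the CisR, 202 in the DoxR and 422 in the parental array by probe set 205197_s_at. By probe set 205198_s_at it had 429, 432 and 482. Both probe sets were lower in both sublines, but by different amounts. The dimmer gave log2 differences of -0.82 in the CisR and -1.07 in the DoxR array, with the DoxR value 2.10-fold and past the threshold, and the brighter gave -0.17 and -0.16. A gene was represented by its brightest probe set, so ATP7A counts as within 2-fold.

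ATP7B, the ATPase of hepatocytes that sends copper to ceruloplasmin and bile, was dim. Probe set 204624_at had a signal of 127 in the CisR, 101 in the DoxR and 120.0 in the parental array, with log2 differences from parental of 0.08 and -0.25. The other probe set (234383_x_at) had signals of 31.9, 23.5 and 28.5, all under the floor, and gave no comparison. Ceruloplasmin (CP), the copper protein of plasma that ATP7B supplies, had a signal of 4298 in the CisR and 7550 in the DoxR array, against 6367 in the parental array, or -0.57 and 0.25. Its 3 other probe sets ranged from -0.54 to -0.37 in the CisR and from -0.59 to 0.14 in the DoxR array, so its sign in DoxR depends on the probe set.

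The cytosolic chaperones were at or slightly above parental. ATOX1, which carries copper to both ATPases, had a signal of 2303 in the CisR and 2521 in the DoxR array, against 2003 in the parental array. Its log2 differences were 0.20 and 0.33, and 31.0% and 19.9% of all genes lay higher. CCS, the chaperone of the copper-zinc superoxide dismutase SOD1, had a signal of 813 in the CisR, 732 in the DoxR and 732 in the parental array. Its differences were 0.15 and -0.00. SOD1 itself had differences of 0.30 and 0.02, with signals of 29979 and 24692 in the CisR and DoxR arrays and 24348 in the parental array.

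COX17, the chaperone that brings copper into cytochrome oxidase assembly in the mitochondrial intermembrane space, was the member past 2-fold, and this rests on a dim probe set. Probe set 1558346_at had a signal of 157 in the CisR and 99.5 in the DoxR array, against 77.4 in the parental array, where the floor is 76.9. It was 2.03-fold higher in the CisR array (log2 1.02) and 1.29-fold higher in the DoxR array (0.36). Of all genes, 2.61% lay higher in the CisR array. In the dimmest of the 3 groups of genes, which holds COX17, 9.56% were past 2-fold, against 2.12% in the brightest group.

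The probe set annotated to both POPDC2 and COX17 (203880_at) was bright, with signals of 6939 in the CisR, 5371 in the DoxR and 5836 in the parental array. Its log2 differences from parental were 0.25 and -0.12. The probe set of POPDC2 alone, a gene of the Popeye family next to COX17, had signals of 18.4, 20.7 and 5.34, all under the floor. The bright probe set was therefore in the direction of the dim one in the CisR array, at 1.19-fold, and in the other direction in the DoxR array. How its signal divides between POPDC2 and COX17 was not tested, and it entered no count.

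The later steps of mitochondrial copper delivery differed little. SCO1, which with SCO2 prepares the copper site of cytochrome oxidase subunit MT-CO2, had a signal of 2024 in the CisR and 1693 in the DoxR array, against 1926 in the parental array. The log2 differences were 0.07 and -0.19. SCO2 had signals of 1858 and 1775, against 1752 in the parental array, with differences of 0.08 and 0.02. COMMD1, a partner of ATP7B and ATP7A in endosomal trafficking, had a signal of 1502 in the CisR and 1823 in the DoxR array, against 1727 in the parental array. Its differences were -0.20 and 0.08.

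**Figure D2:**
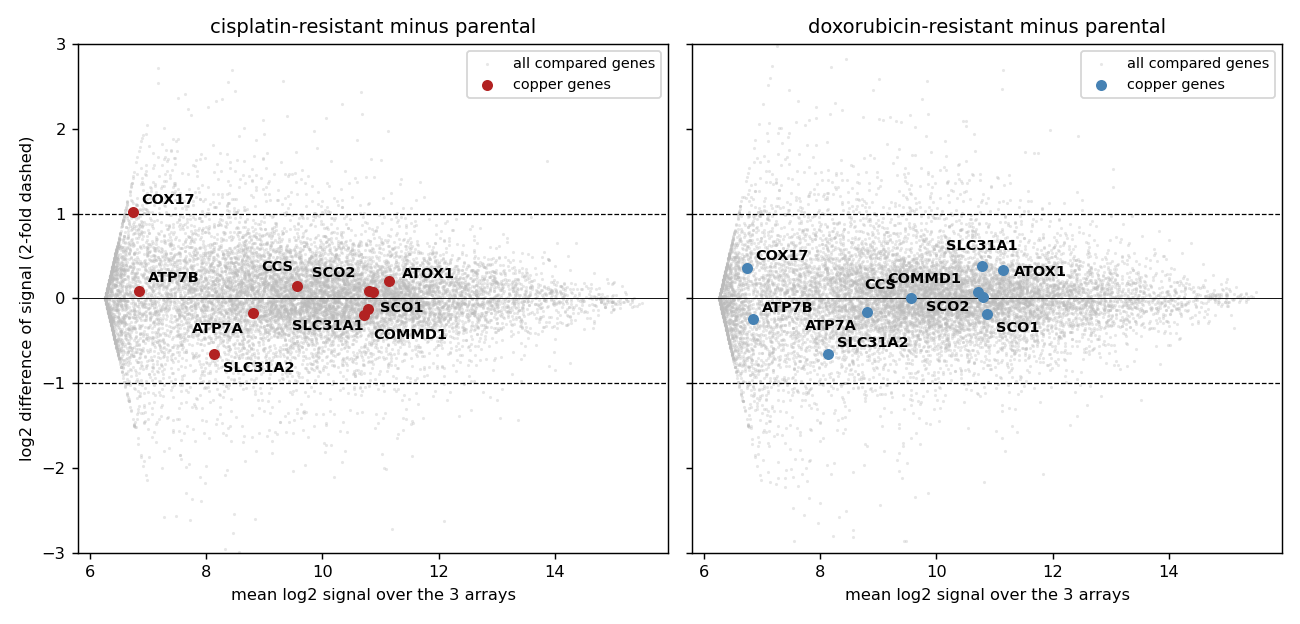
Log2 difference of each subline from parental (vertical) against mean log2 signal over the 3 arrays (horizontal), for all compared genes in grey and the 10 copper genes in colour, with 2-fold dashed. COX17 at 1.02 in the left panel is the copper gene past a dashed line, and it lies at the dim end where the grey cloud is wide. Grey points beyond 3 on the vertical axis are not drawn.

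Set against each other, the DoxR and CisR arrays differed by less than 2-fold for all 10 genes, against 6.36% of 12604 genes past it, and so did all 13 compared probe sets, against 5.59% of all past it. The median log2 difference, DoxR minus CisR, was -0.04 beside -0.01 over all genes. COX17 was furthest down at -0.66 and SLC31A1 furthest up at 0.50. The other SLC31A1 probe sets gave 0.20 and 0.60. ATP7B (-0.33), COMMD1 (0.28) and SCO1 (-0.26) followed in size. At 1.5-fold, which 19.0% of genes passed, COX17 was the member past it.

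To see whether a difference was shared along the chromosome, each member was set beside the median of its 15 nearest compared genes. The neighbours discussed here were chosen after their values were seen. ATP7A lies on chromosome X among lower genes, with a neighbour median of -0.23 in the CisR and -0.42 in the DoxR array. Of the genes within 7 places of it, 11 of 13 compared lay below parental in the CisR and 10 of 14 in the DoxR array. They include the chromatin remodeller ATRX at -0.48 and -0.70 and MAGT1, a subunit of the oligosaccharyltransferase with a role in magnesium transport, at -0.60 and -0.60. With the neighbour median subtracted, the ATP7A values by its brighter probe set (205198_s_at) became 0.06 and 0.26, in the opposite direction. The dimmer probe set (205197_s_at), at -0.82 and -1.07 before any subtraction, lay further down than these neighbour medians.

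SLC31A2 and SLC31A1 lie close together on chromosome 9, separated among compared genes by FKBP15. FKBP15 had log2 differences of -0.06 in the CisR and 0.19 in the DoxR array. The neighbour medians of SLC31A2 were -0.04 and 0.07, and with them subtracted it stood at -0.61 and -0.73. SNX30, a sorting nexin gene 2 places from SLC31A2, was at -0.70 and -0.83, and the genes between and beyond were mixed. The neighbour medians of COX17 on chromosome 3 were -0.05 and 0.05, and its difference in the CisR array became 1.07. SCO2 on chromosome 22 had a neighbour median of 0.33 in the CisR array, above its own value.

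**Figure D3:**
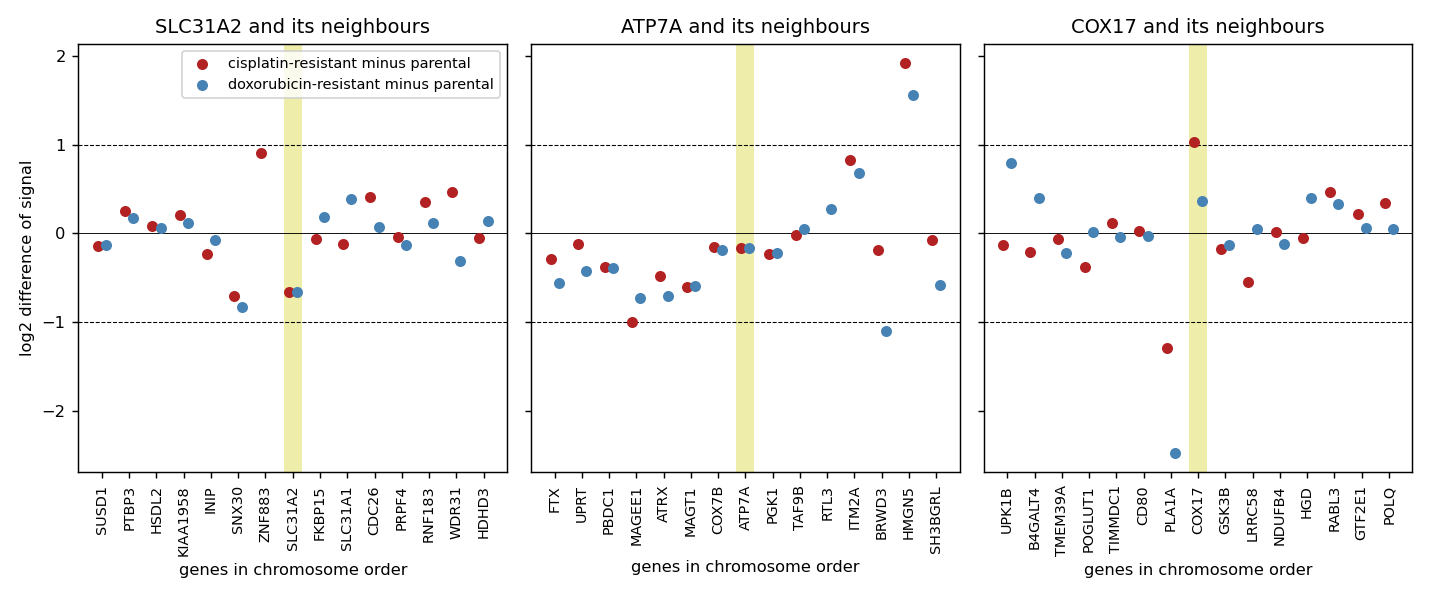
Log2 differences from parental of SLC31A2, ATP7A and COX17 (shaded) and the compared genes within 7 places of each in chromosome order, with 2-fold dashed. The genes around ATP7A lie mostly below 0, while those around SLC31A2 and COX17 fall on both sides.

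Other genes of copper and platinum handling were taken as lists, each described by its count past 2-fold and its median, with a gene again represented by its brightest probe set. Over all genes, 5.41% were past 2-fold in the CisR and 5.72% in the DoxR array. Of 21 further cytochrome oxidase assembly factors, none was past 2-fold in either subline, with medians of 0.04 in the CisR and 0.02 in the DoxR array. The furthest was COA6, which works with SCO1 and SCO2 in copper delivery, at -0.98 in the DoxR array, just under 2-fold. COA6 lies on chromosome 1 among genes whose median was -0.45 in that array. COX15, which makes the heme A of the oxidase, was at 0.39 and 0.35, and the highest of its other probe sets at 1.05 and 1.14. The 11 compared nuclear subunits of the oxidase lay between -0.16 and 0.07 in the CisR and between -0.19 and 0.09 in the DoxR array by their brightest probe sets. The median of the subunits was -0.07 and 0.01. Their other probe sets spread further, down to -0.71 for COX5B in the CisR array and, in the DoxR array, to -1.15 for COX7B, -0.91 for COX4I1 and -0.80 for COX5A.

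The copper enzyme list, which also held the coagulation factors F5 and F8, had 2 of 14 compared members past 2-fold in the CisR array. Both were higher, against 5.41% of all genes past 2-fold in either direction. LOXL1, a lysyl oxidase that crosslinks elastin, was 2.21-fold higher (signals of 2026 in the CisR and 915 in the parental array). AOC1, the diamine oxidase that degrades histamine, had 192 in the CisR and 15.3 in the parental array, which is at least 2.50-fold higher because the parental value lay under the floor. In the DoxR array 1 of 13 was past it, against 5.72% of all genes. This was F5, coagulation factor V, 2.13-fold higher with 2820 in the DoxR and 1322 in the parental array, and its other compared probe sets gave log2 differences of 0.79 to 1.45. The list medians were 0.04 and 0.01.

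The COMMD and retriever cargo genes, which return ATP7A, ATP7B and other cargo from endosomes, had medians of -0.19 in the CisR and -0.13 in the DoxR array, with 9 of 14 and 12 of 14 below 0. Over all genes, 52.2% lay above 0 in the CisR and 50.4% in the DoxR array. CCDC22, the scaffold that binds COMMD proteins, was the member past 2-fold, 1 of 14 in the CisR array, against 5.41% of all genes. Its signal was 392 in the CisR and 1175 in the parental array, which is 2.99-fold lower in CisR, and its other probe set gave a log2 difference of -1.56. CCDC22 lies on chromosome X among genes whose median was -1.35 in that array. COMMD3, on chromosome 10, was at 0.77 with a neighbour median of 0.49. Genes of copper binding, reduction and sensing had medians of -0.12 and 0.02, with none of 15 past 2-fold. They include the metal-responsive transcription factor MTF1, at -0.18 in the CisR and -0.15 in the DoxR array.

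Metallothioneins, small proteins that bind copper and zinc and also platinum, had 1 of 6 compared members past 2-fold, MT1H in the CisR array. Over all genes, 5.41% were past it in that array. MT1H was 2.07-fold higher (signal of 234 in the CisR and 113 in the parental array), and metallothionein probe sets can share signal. In the DoxR array MT1H was at a log2 difference of -0.56 or lower, its signal of 52.5 there lying under the floor. MT1X, counted at 0.44 and 0.39, was at 1.18 and 1.00 by its other probe set. The medians were 0.19 and 0.18. None of 11 compared genes among other platinum carriers and channels was past 2-fold in the CisR array and none of 12 in the DoxR array, with medians of -0.02 and -0.03. The efflux pump ABCC3 was at 0.91 and the volume-regulated channel subunit LRRC8E at -0.90 in the CisR array. The neighbour medians there were 0.40 for ABCC3 and -0.07 for LRRC8E. The 4 other ABCC3 probe sets ranged from 0.66 to 1.25 in the CisR and from -0.09 to 1.02 in the DoxR array, and the other of LRRC8E was at -0.18 in the CisR array. LRRC8D, the subunit of that channel tied to platinum drug uptake, was at -0.29 in the CisR and 0.33 in the DoxR array. Genes of protein lipoylation and copper-dependent cell death had medians of 0.30 and 0.17, with 9 of 13 above 0 in each subline, beside the 52.2% and 50.4% of all genes, and none past 2-fold. By other probe sets, SLC25A3, a mitochondrial carrier of copper and phosphate, reached -1.26 in the CisR array and DBT, a lipoylated acyltransferase, reached -1.11 in the DoxR array. Among them the ferredoxin FDX1, which reduces copper bound to ionophores, was at 0.30 and -0.09. Its 2 other probe sets were above 0 on both arrays, at 0.59 and 0.85 in the CisR and 0.41 and 0.61 in the DoxR array.

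**Figure D4:**
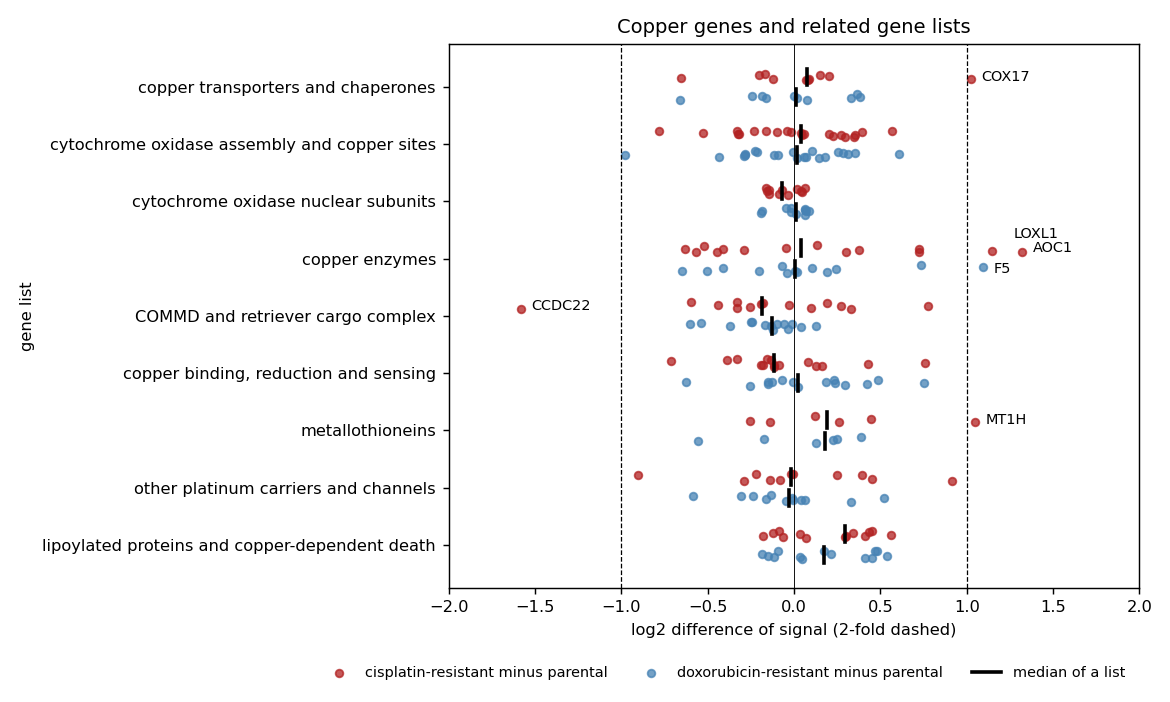
Log2 difference from parental of each compared gene in the 10 copper genes and 8 further lists, the CisR above the DoxR array in each row, with black bars at list medians and dashed lines at 2-fold. The genes past 2-fold are named, and AOC1 is drawn at its lower bound.

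The genes whose pattern over the 3 arrays was nearest to that of COX17 were STRN3, KIAA1217 and ABCB6. Nearness was the Euclidean distance in the 2 log2 differences from parental, over 11125 other genes above the floor on all arrays. The distances were 0.03 for each of these genes, and 22 genes lay within 0.1. With 3 arrays, such nearness is common and describes these arrays alone.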

How the data were processed

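The authors deposited a linear intensity, the MAS5 signal of each probe set, with MAS5 named in the submitters' processing notes and no version stated there. The mean of each array without the lowest and highest 2% of values was 500.1, the form that global scaling gives. MAS5 subtracts mismatch signal, which makes low values noisy. No value column was left out. The platform annotation gave the gene names, and RefSeq (GRCh38.p14) gave current symbols by gene ID. Of the probe sets, 41097 had 1 symbol, of which 41043 matched, and 1801 had several symbols and stand for no gene.

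Signals were raised to the floor (76.9), log2 was taken, and the probe set with the highest mean log2 signal stood for its gene. With 1 array per line, no test, SD or p-value was computed, and differences were counted at 2-fold. Python 3.11.15, numpy 2.4.6 and pandas 2.3.3 were used, and the steps were tested on simulated arrays. The members and lists were chosen with earlier results of these data known. Named genes were all members, listed genes past 2-fold (up to 4 in each direction), and the 3 nearest patterns of a member past 2-fold. Listed genes under 2-fold, marker genes and neighbours were named after their values were seen. Marker lists for leukocytes (4 genes on the array, summed signal 427, 282 and 365 in the CisR, DoxR and parental arrays), endothelium (5 genes, 1117, 1031 and 1326) and epithelium (5 genes, 74228, 76881 and 62435) were also summed. Alternatives changed the floor, pseudocount, scaling, probe set, neighbours and fold.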

Additional observations from a re-analysis of the deposited data

How the results depend on the processing

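COX17 as the 1 member past 2-fold in the CisR array held with centring on all genes (log2 1.01) and subtraction of 15 neighbours (1.07). A floor at the 25th percentile and the median over probe sets could not change it, since its 1 own probe set is above the floor on all arrays. The count was 0 with a floor at the 75th percentile (7 members compared, COX17 not among them), with a pseudocount of 50 and no floor (COX17 at 0.70), with quantile normalization (0.997), and, in a setting chosen after seeing the data, with the probe set shared with POPDC2 standing for COX17 (0.25). The count of member probe sets past 2-fold was 0 in the CisR array under the first 3 of these settings, and 0 in the DoxR array with a floor at the 75th percentile and with the pseudocount. At 1.5-fold, 2 members (SLC31A2 and COX17) and 3 probe sets were past it in the CisR array, and 1 member (SLC31A2) and 2 probe sets in the DoxR array. Between the sublines, DoxR minus CisR, 1 member (COX17) and 2 probe sets were. The share of all genes past 2-fold in the CisR array was 11.7% at the 25th and 2.73% at the 75th percentile floor. The 25th percentile floor could change no member value, since every probe set that stands for a member is above the main floor on all arrays. The median over probe sets could change SLC31A1 and ATP7A alone, the members with several compared probe sets. The 75th percentile floor changed ATP7A alone among the members it kept. Of 203 values of single genes under alternatives, 199 moved by less than the spread of all genes, with those that could not move included. The others were COX17 by the shared probe set (-0.12 in the DoxR array) and ATP7A in the DoxR array. ATP7A was at -0.61 by the median over probe sets and, by its brighter probe set, at 0.26 with neighbours subtracted. The cause was not tested. The spread was 0.37 in each subline against parental, above the members' median sizes of 0.16 in CisR and 0.22 in DoxR. A small value could therefore change sign and count as not moved. With neighbours subtracted, ATP7A (0.06), ATP7B (-0.14) and SCO2 (-0.25) did so in the CisR array. SLC31A2 ranged from -0.69 to -0.56 in the CisR and from -0.73 to -0.57 in the DoxR array. COX17 and ATP7B lay near the floor, which limits what their signals can show. No paired analysis was possible because each line has 1 array, and none could be left out.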
